A study of Homo sapiens with 8 samples.

Results

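BLISS+ regions, the stretches of the genome called as enriched in double-strand breaks (DSBs), were described along human chromosome 4 in U2OS-MycER cells. Members were all regions that a library's list placed on chromosome 4 (hg19), whatever their size: 103 (replicate 1) and 61 (replicate 2) for shNT+OHT, 239 (replicate 1) and 221 (replicate 2) for shCDK12+OHT, together 624 of the 10211 regions in the 4 lists. U2OS is a human osteosarcoma line with a rearranged karyotype, and the lists carry no measure of copy number. The cells express MycER, a Myc protein fused to the hormone-binding domain of the estrogen receptor and switched on by 4-hydroxytamoxifen (OHT), and both groups received 300 nM OHT for 40 h. They carried an shRNA induced with 1 µg/mL doxycycline, either non-targeting (shNT) or against CDK12 (shCDK12), and each group has 2 libraries. All cells were arrested with 100 ng/mL nocodazole for 8 h, shaken off, released for 18 h and fixed with 2% PFA. The shRNAs were delivered by virus. Whether the 2 libraries of a group came from separate cultures is not given in the labels, so p-values measure only the spread between these samples, which may be technical. The level of CDK12 itself cannot be read from break lists. Libraries from cells without OHT, 4 in number, were not analysed here, and a background with inactive MycER is therefore missing from all comparisons.

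As background, DSBs in S-phase can form where a replication fork meets a transcribing polymerase, is slowed, or runs through a stretch with few replication origins. Myc raises transcription broadly and promotes entry into S-phase, and CDK12 is a kinase that phosphorylates RNA polymerase II and sustains elongation, in particular along long genes and genes of the DNA damage response. Chromosome 4 is a large chromosome with long gene deserts, much of which is known to replicate late. The label "gene-poor" was checked on the RefSeq gene table of GRCh38, by numbers alone. With 770 protein-coding genes, or 4.05 per Mb, chromosome 4 ranked 3 of 22 autosomes from the fewest, against a median of 5.89 per Mb on the other 21. Genes at the regions are not named and no sequence is printed, since no hg19 reference was used here. Positions are given on hg19, counted from 1.

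The first comparison asked whether the number of break regions on this chromosome differed between the groups. More regions were listed after CDK12 silencing: the mean was 82.0 ± 29.7 (SD, n = 2) for shNT+OHT and 230.0 ± 12.7 (SD, n = 2) for shCDK12+OHT, which is 1.49 on the log2 scale. The groups did not overlap, and the exact permutation p-value over the 6 relabellings of the 4 libraries was 0.333 (two-sided), the smallest that 2 against 2 libraries allow. Regions covered 266 and 156 kb for shNT+OHT and 778 and 622 kb for shCDK12+OHT, a log2 ratio of 1.73 (exact permutation p-value 0.333). After Benjamini-Hochberg adjustment over the 7 group comparisons made in this way, each of the 6 with a p-value of 0.333 stood at 0.389, and none passed 0.05. The lists hold coordinates without counts, so sequencing depth is unknown, and more breaks and a higher yield of a library cannot be told apart in these numbers.

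Relative to its length, chromosome 4 held fewer regions than the chromosomes that every list covers, but this order depended on which chromosomes it was set against. Over its 191 Mb, the lists held 0.539 and 0.319 regions per Mb for shNT+OHT and 1.25 and 1.16 for shCDK12+OHT. On the other 7 chromosomes listed in all 4 libraries (1, 2, 6, 7, 8, 10 and 14) the density was 0.760 and 0.468 per Mb for shNT+OHT and 1.90 and 1.51 for shCDK12+OHT. Chromosome 4 thus lay at 0.709, 0.682, 0.658 and 0.767 of the density of the others. Against these 7 together it was lower in 4 of 4 libraries, with a mean log2 ratio of -0.51 ± 0.09 (SD, n = 4 libraries). The exact sign-flip permutation p-value was 0.13, the smallest that 4 libraries allow. Taken singly, the 7 differed in shNT+OHT, where chromosome 8 held 2.28 and 1.43 regions per Mb. It held 333 of the 921 and 209 of the 567 regions on these 7 chromosomes in shNT+OHT. In shCDK12+OHT it held 422 of 2304 and 337 of 1828. Values set against the 7 together thus lean on chromosome 8, more so in shNT+OHT, and were not computed without it. Chromosome 4 lay above chromosomes 1, 2 and 6 in shNT+OHT replicate 1 (0.273, 0.440 and 0.351 per Mb) and below the rest. In replicate 2 it lay above chromosomes 1 and 6 (0.148 and 0.193 per Mb) and below the rest. In shCDK12+OHT it lay below each of the 7 in both libraries. Against all other autosomes, 9 of which have no region at all in a given shNT+OHT library, the log2 ratios were 0.41 and 0.24 for shNT+OHT and -0.37 and -0.13 for shCDK12+OHT, so the sign turned in both shNT+OHT libraries and the groups did not overlap. Against the 7 together, the relative density did not separate the groups (difference 0.03 on the log2 scale, exact permutation p-value 1, 1 after adjustment). Without the densest run of chromosome 4, described below and chosen after the lists had been seen, the log2 ratios were lower in every library. They were -1.16 and -1.16 for shNT+OHT and -0.80 and -0.60 for shCDK12+OHT, a difference of 0.46, given without a test. The run held a larger share of the chromosome 4 regions in shNT+OHT, so leaving it out lowers shNT+OHT more. Dense runs on the other 7 chromosomes were not left out, so the 2 sides of these ratios were not treated alike. Chromosome 4 was not the emptiest chromosome: among the autosomes with any region, it ranked 8 of 13 and 5 of 13 from the lowest density in shNT+OHT replicates 1 and 2, and 6 of 21 and 8 of 22 in shCDK12+OHT replicates 1 and 2. Its log2 ratio between groups, 1.49, lay within the range of the other 7 chromosomes, from 0.49 on chromosome 8 to 2.85 on chromosome 1 (median 1.77).

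The arms behaved differently. The centromere gap at 49.7 to 52.7 Mb held no region in any library and divided the chromosome into a short arm of 49.7 Mb and a long arm of 138 Mb. On the short arm, 71 and 42 regions were listed for shNT+OHT and 90 and 78 for shCDK12+OHT, a ratio of 1.49. On the long arm, 32 and 19 regions were listed for shNT+OHT and 149 and 143 for shCDK12+OHT, a ratio of 5.73. The share of a library's chromosome 4 regions that lay on the long arm was 31.1 and 31.1% for shNT+OHT and 62.3 and 64.7% for shCDK12+OHT. The difference of 32.4 percentage points was larger than the spread between replicates, with an SD of 0.0563 points in shNT+OHT and 1.67 points in shCDK12+OHT (exact permutation p-value 0.333, adjusted 0.389). Per Mb, the short arm of shNT+OHT held 1.43 and 0.845 regions against 0.231 and 0.137 on the long arm. In shCDK12+OHT the short arm held 1.81 and 1.57 per Mb and the long arm 1.08 and 1.03, so the arms were closer in density there. The arms of other chromosomes were not compared.

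Many of the short-arm regions lay in 1 place. Regions of the 4 lists were merged and chained wherever neighbours lay within 100 kb of each other; the chain with the most regions on chromosome 4, chosen after the lists had been seen and therefore given without a test, ran from 30270001 to 30896000, 626 kb on the short arm and 18.8 Mb from the centromere gap. This densest run makes up 0.327% of the chromosome's length. It held 38 and 21 regions in shNT+OHT, 36.9% (95% Wilson interval 28.2 to 46.5) and 34.4% (23.7 to 47.0) of the chromosome 4 regions of these libraries. In shCDK12+OHT it held 31 and 31 regions, 13% (9.29 to 17.8) and 14% (10.1 to 19.2). Both shCDK12+OHT counts lay between those of the shNT+OHT replicates. The mean was 29.5 ± 12 (SD, n = 2) in shNT+OHT and 31.0 in both shCDK12+OHT libraries, a log2 ratio of 0.07, whereas all other regions of the chromosome had a log2 ratio of 1.92 (65 and 40 regions against 208 and 190).

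**Figure D1:**
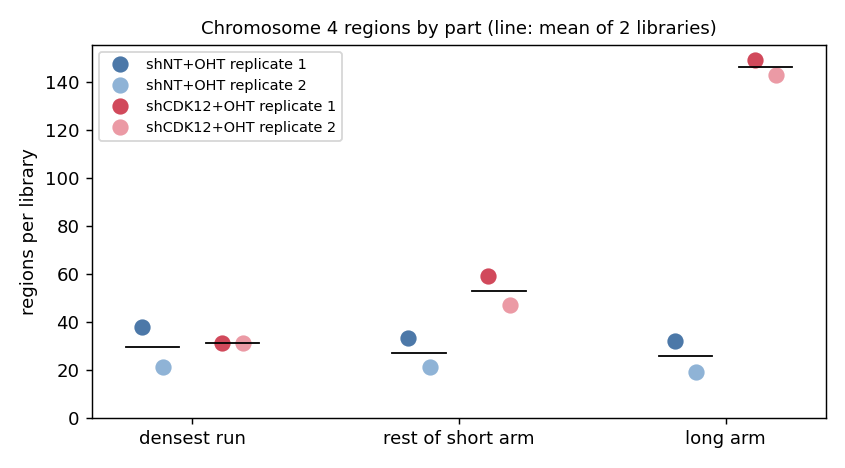
Number of BLISS+ regions (vertical axis, linear from 0) in 3 parts of chromosome 4 for each library (points, blue shNT+OHT, red shCDK12+OHT; lines, mean of 2 libraries). The groups overlap in the densest run (38 and 21 against 31 and 31), separate in the rest of the short arm (33 and 21 against 59 and 47) and lie farthest apart on the long arm (32 and 19 against 149 and 143).

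The run was dense in absolute terms. With 60.7 and 33.5 regions per Mb in shNT+OHT and 49.5 per Mb in each shCDK12+OHT library, it exceeded the rest of the chromosome 178- and 160-fold in shNT+OHT and 45.4- and 49.7-fold in shCDK12+OHT. Chained in the same way, no other stretch of the genome held as many merged regions: 49 here, against 47 and 45 in a pair of neighbouring runs on chromosome 8 and 37 on chromosome 14. By the regions of single libraries, it ranked 1 in both shNT+OHT libraries and in shCDK12+OHT replicate 2, and 3 in shCDK12+OHT replicate 1, behind 2 runs on chromosome 8. The rank is a description, since the run was picked for its number.

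Its borders lay close together in the 4 libraries. The first region of the run started at 30270001 in shNT+OHT replicate 1 and shCDK12+OHT replicate 1, at 30298001 in shNT+OHT replicate 2 and at 30310001 in shCDK12+OHT replicate 2. The last region ended at 30896000 in shNT+OHT replicate 1 and at 30894000 in the other 3 libraries. On the side of the chromosome end, 3.4 to 3.44 Mb without any region preceded the run in each library. On the side of the centromere, the next region followed after 0.800 and 0.642 Mb in shNT+OHT and after 3.51 and 0.354 Mb in shCDK12+OHT. Inside, the median gap between regions was 12 and 23 kb for shNT+OHT and 12 and 14 kb for shCDK12+OHT, and the listed regions covered between 10.2 and 19.5% of the run's length over the 4 libraries.

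**Figure D2:**
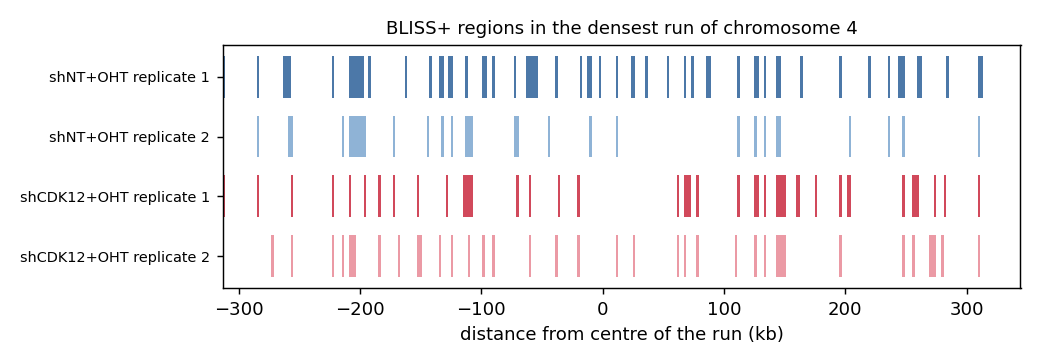
BLISS+ regions inside the 626 kb run, 1 row per library (bars drawn to scale, horizontal axis in kb from the centre of the run). Regions are spread along the run in all 4 libraries, and the last one ends within 2 kb of the same position in each.

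Positions within the run were largely shared between groups. Of its 49 merged regions, 30 (61.2%) were listed in both groups and 10 in all 4 libraries. Outside the run, 23 of 335 merged regions (6.87%) were listed in both groups and 5 in all 4 libraries. Of the 21 regions of shNT+OHT replicate 2 in the run, 16 (76.2%, 95% Wilson interval 54.9 to 89.4) were touched by a region of shNT+OHT replicate 1, 13 by shCDK12+OHT replicate 1 and 11 by shCDK12+OHT replicate 2. Of the 31 regions of shCDK12+OHT replicate 1, 19 (61.3%, 43.8 to 76.3) were touched by the other shCDK12+OHT replicate, 15 by shNT+OHT replicate 1 and 14 by shNT+OHT replicate 2. The intervals for the own replicate and the other group overlapped in each case. A region falls on another more easily where both lists are dense, which was so here, and its part in these shares was not tested.

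A smaller run lay 15.0 Mb from the centromere gap, between 34338001 and 34688000. It held 12 merged regions over 350 kb, with 7 and 4 regions for shNT+OHT and 2 and 3 for shCDK12+OHT. No further chain on the chromosome held more than 4 merged regions.

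Counts in fixed 5 Mb windows showed the same pattern at a coarser scale. The window from 30 to 35 Mb, which holds both runs, was the fullest in all 4 libraries: 54 and 32 regions for shNT+OHT and 33 and 41 for shCDK12+OHT. This was 52.4 and 52.5% of the chromosome 4 regions for shNT+OHT and 13.8 and 18.6% for shCDK12+OHT. The next fullest windows by mean number in shNT+OHT were 40 to 45 Mb (8 and 2 regions), 35 to 40 Mb (6 and 3) and 115 to 120 Mb (7 and 2), followed by 60 to 65 and 65 to 70 Mb with 4 and 3 regions each. In shCDK12+OHT they were 35 to 40 Mb (16 and 9), 75 to 80 Mb (13 and 11), 40 to 45 Mb (15 and 8) and 110 to 115 Mb (10 and 12). The 5 fullest windows of each library held 78.6 and 73.8% of its chromosome 4 regions for shNT+OHT and 36.8 and 37.6% for shCDK12+OHT, which differ by -39.0 percentage points (exact permutation p-value 0.333, adjusted 0.389).

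**Figure D3:**
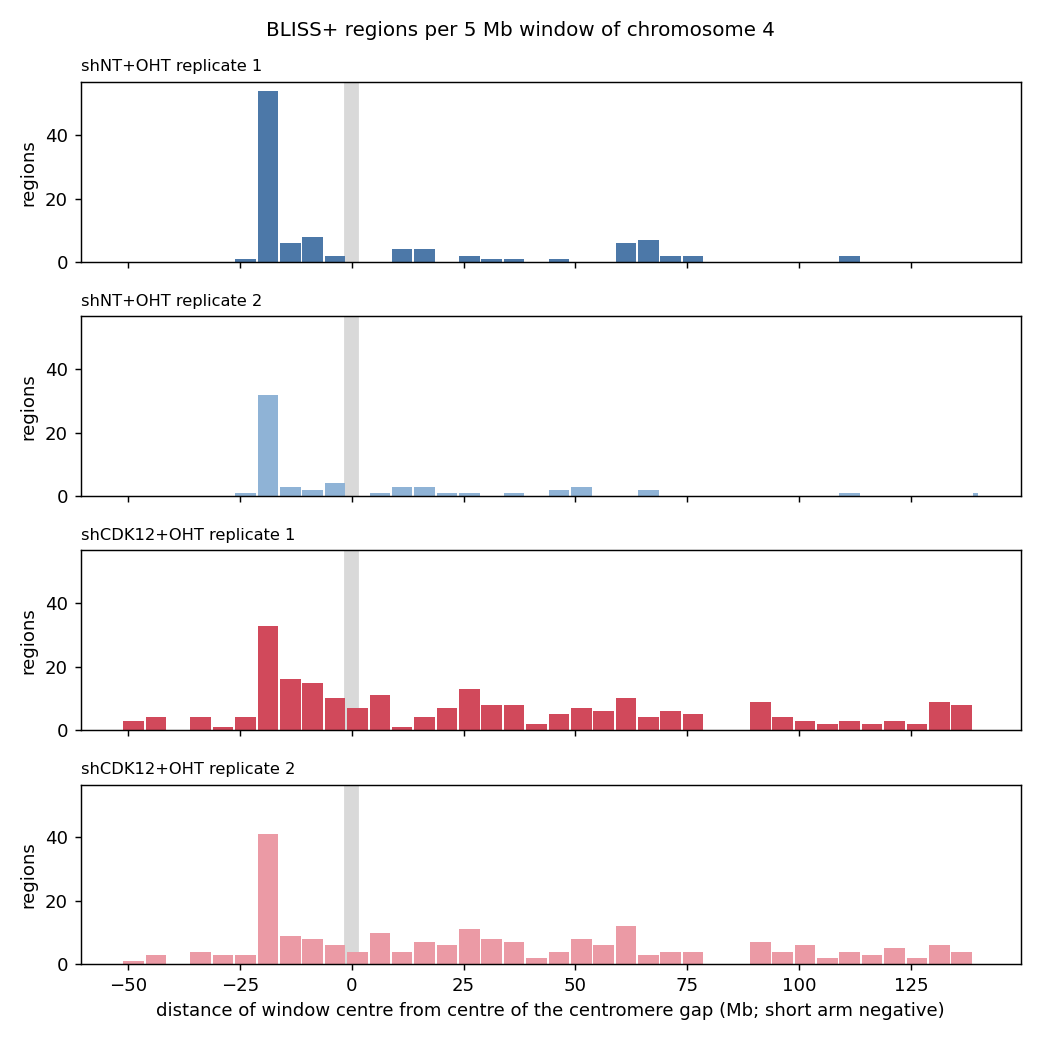
BLISS+ regions per 5 Mb window of chromosome 4 in each library (vertical axis, number of regions; horizontal axis, distance of the window from the centre of the centromere gap, grey, with the short arm negative). One window of the short arm stands out in every library (54, 32, 33 and 41 regions), while the long arm is filled mainly in shCDK12+OHT.

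Both shCDK12+OHT libraries exceeded both shNT+OHT libraries in 30 of the 39 windows (76.9%), and the reverse held in 0. Over all 633 windows of the genome, the shares were 71.9 and 1.42%, and over the windows of the other 7 chromosomes listed in all libraries 76.4 and 3.66%, so the share on chromosome 4 was near its background. In 16 of the 30 windows neither shNT+OHT library listed a region. The largest differences of group means were at 75 to 80 Mb (2 and 1 against 13 and 11 regions) and 55 to 60 Mb (0 and 1 against 11 and 10). They were followed by 35 to 40 Mb (6 and 3 against 16 and 9), 110 to 115 Mb (6 and 0 against 10 and 12) and 140 to 145 Mb (0 and 0 against 9 and 7). Only 4 windows had a lower mean in shCDK12+OHT, namely 30 to 35, 60 to 65, 115 to 120 and 190 to 191 Mb, and the groups overlapped in each of them.

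Long stretches were empty. No library listed a region between 129736001 and 140006000, a stretch of 10.3 Mb on the long arm, or between 7940001 and 15006000, a stretch of 7.07 Mb near the end of the short arm. In shNT+OHT nothing was listed in the first 26.9 Mb of the chromosome, where the first region of both libraries was the same 2 kb bin, 26864001 to 26866000. In shCDK12+OHT the first regions lay at 1.87 and 2.24 Mb from that end, and 13 and 12 regions lay below 26 Mb. Beyond 130 Mb, shNT+OHT held 2 and 2 regions, and shCDK12+OHT held 45 and 43. The longest stretch without a region was 35.4 and 47.2 Mb in shNT+OHT, and in both shCDK12+OHT libraries it was the 10.3 Mb stretch above.

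Near the centromere and the chromosome ends numbers were small in shNT+OHT. Within 5 Mb of the gap, the short-arm side held 2 and 4 regions for shNT+OHT and 10 and 6 for shCDK12+OHT, and the long-arm side 0 and 1 against 15 and 12. The nearest regions to the gap lay 2.01 and 3.24 Mb away on the short arm and 7.65 and 3.71 Mb away on the long arm in shNT+OHT. In shCDK12+OHT replicate 1 they lay at both edges, 0.040 Mb (49658001 to 49660000) and 0.00600 Mb (52706001 to 52708000) from the gap, and in replicate 2 at 0.918 and 0.216 Mb. Within 5 Mb of the end of the short arm, shNT+OHT held no region and shCDK12+OHT held 3 and 1. Within 5 Mb of the end of the long arm there were 0 and 1 regions for shNT+OHT, the latter at 190842001 to 190844000, and 3 in each shCDK12+OHT library. The last regions of both shCDK12+OHT libraries coincided at 187642001 to 187644000, whereas shNT+OHT replicate 1 ended at 163342001 to 163344000.

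Regions of shNT+OHT were more clustered along the chromosome, by a margin that depended on whether close regions were joined. A neighbour within 100 kb was found for 63 of 103 (61.2%) and 26 of 61 regions (42.6%) in shNT+OHT and for 103 of 239 (43.1%) and 82 of 221 regions (37.1%) in shCDK12+OHT. Longer lists have closer neighbours by number alone, so the expected share was also computed, exactly and without drawing, for lists thinned to 61 regions. It was 52.5 and 42.6% for shNT+OHT and 20.3 and 19.8% for shCDK12+OHT, which differ by -27.4 percentage points (exact permutation p-value 0.333, adjusted 0.389). Without the densest run and at 40 regions each, the shares were 25.6 and 12.5% for shNT+OHT and 7.56 and 6.15% for shCDK12+OHT. The difference was then -12.2 percentage points, and the groups still did not overlap. With the run included and regions up to 10 and 50 kb apart joined first, the equal-number difference was -23.0 and -3.88 percentage points.

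The long-arm share also moved without the run. It was 49.2 and 47.5% for shNT+OHT and 71.6 and 75.3% for shCDK12+OHT, which differ by 25.1 percentage points. In the rest of the short arm, 33 and 21 regions were listed for shNT+OHT and 59 and 47 for shCDK12+OHT, a log2 ratio of 0.97 against 2.52 on the long arm. All values without the run were computed after the run had been seen.

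Regions on chromosome 4 were mostly single 2 kb bins. Single bins made up 81.6 and 86.9% of the regions for shNT+OHT and 68.2 and 78.3% for shCDK12+OHT. The mean width was 2.58 and 2.56 kb for shNT+OHT and 3.26 and 2.81 kb for shCDK12+OHT, so the group means differed by 0.465 kb (exact permutation p-value 0.333, adjusted 0.389). When regions were joined across gaps of up to 10 kb, the difference turned to -0.776 kb. Inside the densest run the order was the reverse, with means of 3.21 and 3.05 kb for shNT+OHT and 2.84 and 2.52 kb for shCDK12+OHT. Outside the run, the means were 2.22 and 2.30 kb for shNT+OHT and 3.32 and 2.86 kb for shCDK12+OHT. On the other 7 chromosomes the means were 2.73 and 2.56 kb for shNT+OHT and 3.35 and 3.09 kb for shCDK12+OHT. Chromosome 4 regions were narrower in 4 of 4 libraries, although in shNT+OHT replicate 2 the means were nearly equal (2.557 against 2.561 kb). The mean difference was -0.130 kb ± 0.114 (SD, n = 4 libraries), with an exact sign-flip permutation p-value of 0.13, the smallest possible. The share of single bins showed no such order (difference -0.0990 percentage points ± 4.56, SD, n = 4 libraries; exact sign-flip permutation p-value 0.875).

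In shCDK12+OHT the widths had a second mode at 6 kb. Regions of 6 kb numbered 38 and 23 there, more than the 22 and 16 regions of 4 kb. In shNT+OHT there were 4 and 2 regions of 6 kb against 13 and 4 of 4 kb. Neighbouring regions lay at least 4 kb apart, so whether each 2 kb bin inside a wider region was itself called cannot be read from the lists. Regions of at least 6 kb, a limit set after the widths had been seen, numbered 6 and 4 in shNT+OHT (5.83 and 6.56%) and 54 and 32 in shCDK12+OHT (22.6 and 14.5%). On the other 7 chromosomes such regions made up 7.60 and 5.82% for shNT+OHT and 20.8 and 17.2% for shCDK12+OHT, so chromosome 4 lay near its background. Their log2 ratio between groups on chromosome 4 was 3.10, against 1.29 for single bins. In shNT+OHT all of them lay on the short arm, 4 and 2 in the densest run. In shCDK12+OHT 37 and 21 lay on the long arm, and 4 and 3 in the run. These wide regions recurred: 47 of 54 (87.0%, 95% Wilson interval 75.6 to 93.6) and 29 of 32 (90.6%, 75.8 to 96.8) were touched by the other shCDK12+OHT replicate, against 83 of 163 (50.9%, 43.3 to 58.5) and 102 of 173 (59.0%, 51.5 to 66.0) single bins. A wider region is touched more easily, and its part in this difference was not tested. Of the wide regions, 11 of 54 and 9 of 32 were touched by a shNT+OHT region.

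**Figure D4:**
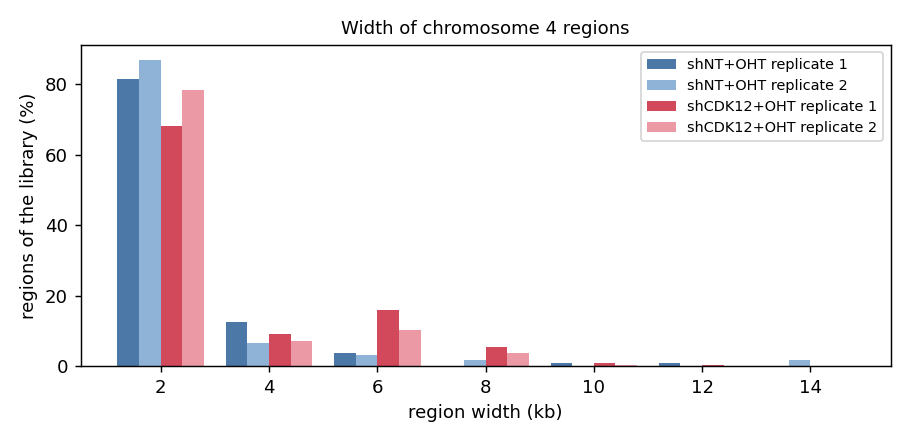
Share of each library's chromosome 4 regions (vertical axis, %) by region width (horizontal axis, kb; blue shNT+OHT, red shCDK12+OHT). Single bins of 2 kb dominate in all libraries, and the 6 kb class exceeds the 4 kb class only in shCDK12+OHT (38 against 22 and 23 against 16 regions).

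Replicates agreed better in shCDK12+OHT. Of 103 and 61 shNT+OHT regions, 26 (25.2%, 95% Wilson interval 17.8 to 34.4) and 26 (42.6%, 31.0 to 55.1) were touched by the other replicate. Of 239 and 221 shCDK12+OHT regions, 146 (61.1%, 54.8 to 67.0) and 146 (66.1%, 59.6 to 72.0) were. The other 7 chromosomes gave 23.7 and 40.4% for shNT+OHT and 56.6 and 72.4% for shCDK12+OHT, so chromosome 4 showed the same order. A longer list touches more of another list, and its part in this difference was not tested. Identical edges were found for 14 of the 26 touched regions in shNT+OHT and 97 of the 146 in shCDK12+OHT. The densest run held 16 of the 26 touched regions of each shNT+OHT library, and outside it the shares were 15.4% (8.58 to 26.1) and 25% (14.2 to 40.2). In shCDK12+OHT they were 61.1 and 66.8% outside it. Across the 39 windows, the counts of the replicates correlated with r = 0.975 (Spearman's rho 0.640) in shNT+OHT and 0.913 (0.866) in shCDK12+OHT. Without the 30 to 35 Mb window, r was 0.543 over the other 38 in shNT+OHT and 0.835 in shCDK12+OHT. Between groups r ranged from 0.323 to 0.471 over these 38 windows. Windows are neighbours on 1 chromosome and share each library's yield, so these values only describe the lists.

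Finally, regions were classed as kept, lost or gained between groups, with the replicates of a group joined by their union. The shNT+OHT union had 136 regions and the shCDK12+OHT union 304. A shCDK12+OHT region touched 49 of the shNT+OHT regions, which were thus kept (36.0%, 95% Wilson interval 28.4 to 44.4), and 87 (64.0%) were lost from the lists. The share kept was 39.5% over the whole series and 38.8% on the other 7 chromosomes, so chromosome 4 lay near its background. Of the shCDK12+OHT regions, 254 (83.6%) were touched by no shNT+OHT region and thus gained. The share was 88.1% over the whole series and 83% on the other 7 chromosomes. Without the densest run, 242 of 264 (91.7%) were gained on chromosome 4. Dense runs on the other 7 chromosomes were not left out, so their 83% is no like background for this value. A lost region is one that is not listed, which does not mean that it held no breaks.

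Within the chromosome, the shares differed by place. In the densest run, 27 of 42 shNT+OHT regions (64.3%, 95% Wilson interval 49.2 to 77.0) were kept and 12 of 40 shCDK12+OHT regions were gained. On the rest of the short arm, 7 of 48 (14.6%, 7.25 to 27.2) were kept and 69 of 76 (90.8%) were gained. On the long arm, 15 of 46 (32.6%, 20.9 to 47.0) were kept and 173 of 188 (92.0%) were gained. The kept share was higher in the run than in both other parts. The run was chosen for its density, and regions touch more easily where lists are dense, so this order is a description and was not tested. Lost regions in the run lay a median of 4 kb from the nearest shCDK12+OHT region and at most 14 kb away. Outside the run the median was 160 kb, with 5 of 72 within 10 kb. Gained regions outside the run lay farther from the other group, a median of 1160 kb, and 127 of 242 (52.5%) had no shNT+OHT region within 1 Mb. The lists differ in length, and its part in these distances was not tested.

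**Figure D5:**
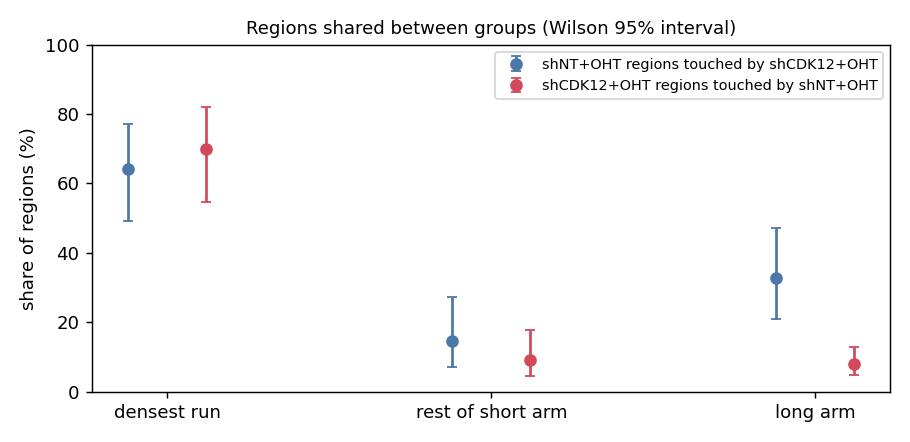
Share of regions touched by the other group (vertical axis, %; bars, Wilson 95% interval for counting error) in 3 parts of chromosome 4; blue, shNT+OHT regions touched by shCDK12+OHT; red, the reverse. Both shares are highest in the densest run (64.3 and 70.0%) and the red share is lowest on the long arm (7.98%).

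By single libraries, 15 of the 384 merged regions (3.91%) were listed in all 4 libraries, against 2.23% over all chromosomes and 3.73% over the other 7 listed in all libraries, and 10 of the 15 lay in the densest run. Chromosomes missing from a list cannot hold this class, so the value over the 7 is the comparable one, and chromosome 4 lay near it. A further 38 (9.90%, against 8.48% over all and 10.6% over the 7) were listed in both groups but not in all libraries. The longest regions found in all 4 were those of 14 kb at 30374001 to 30388000, inside the run, and at 34404001 to 34418000, in the smaller run, followed by an 8 kb region at 26858001 to 26866000. The last of these is 1 of 4 regions of that length in the class, of which the other 3 lay in the densest run, and was taken as the first by position. The first of these 14 kb regions spanned 12 and 14 kb for shNT+OHT and 4 and 6 kb for shCDK12+OHT and was also the longest region of either shNT+OHT list. The second spanned 6 and 8 kb for shNT+OHT and 10 and 8 kb for shCDK12+OHT. The 8 kb region was a single 2 kb bin in both shNT+OHT libraries and spanned 8 and 6 kb in shCDK12+OHT. The remaining members of this class outside the run were 65472001 to 65474000, 68264001 to 68268000 and 163342001 to 163344000, all on the long arm.

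Regions present in both shCDK12+OHT libraries and in neither shNT+OHT library numbered 121 (31.5%, against 34% over all chromosomes and 29.6% over the other 7), 91 of them on the long arm and 5 in the run. The longest spanned 12 kb at 109084001 to 109096000, although replicate 2 listed only 2 kb of it. The next was a 10 kb region at 100864001 to 100874000, which both libraries listed in full and which was the longest region of shCDK12+OHT replicate 2. The class held 10 regions of 8 kb, 6 of them on the long arm; the first by position was 38662001 to 38670000 on the short arm, with 8 and 2 kb listed. A further 128 merged regions were listed in a single shCDK12+OHT library, with 89.8% single bins against 51.2% in the class found in both.

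Only 8 merged regions (2.08%, against 0.984% over all chromosomes and 1.61% over the other 7) were listed in both shNT+OHT libraries and in neither shCDK12+OHT library. The longest was 6 kb, 34584001 to 34590000 in the smaller run, 58.0 kb from the nearest shCDK12+OHT region, followed by 4 kb regions at 30438001 to 30442000 and 30570001 to 30574000 in the densest run, 4 and 6 kb from the nearest. The other 5 were single bins. Among them, 60346001 to 60348000 on the long arm lay farthest from a shCDK12+OHT region, 1596 kb away. A single shNT+OHT library listed 74 more regions that shCDK12+OHT lacked, 46 of them on the short arm and 95.9% of them single bins.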

How the data were processed

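DSBs were mapped by sBLISS, which ligates an adapter to break ends in fixed cells. Per the labels there were 8 libraries in 4 groups of 2, grouped by title, and the 4 with OHT entered the comparisons. The deposited values are the chromosome, start and end of regions the authors called in each library, on hg19 per the submitters' processing notes. How regions were called, with which threshold and whether libraries were brought to equal depth are not given in the sources used here, and any of these could set the number and width of regions. The positions were all multiples of 2000 bp, and neighbouring regions lay at least 4 kb apart.

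Regions were assigned to 5 Mb windows by midpoint. Overlap was at least 1 bp, and unions joined touching regions. Library values were compared by exact permutation over relabellings of libraries or exact sign flips, two-sided; Wilson 95% intervals reflect counting error alone and treat neighbouring regions as independent, which they are not. The thinned share of clustered regions was computed from the hypergeometric distribution. Python 3.11.15, numpy 2.4.6, scipy 1.17.1, pandas 2.3.3 and matplotlib 3.10.9 were used, and the functions were tested on simulated data. Windows and regions were named by rule: the 5 fullest windows of each group, the 5 with the largest difference of group means, the 3 longest merged regions of each class (ties by start), the longest region of each library, and those nearest to the gap and the ends; other positions were added after their values were seen. The members, windows and classes were chosen with earlier results of these data known. Alternatives were a minimum width, wider merging, other overlap rules, window sizes and radii, leaving out regions near the centromere gap, the densest run or single libraries, and pairing by replicate number. Promoters, GC content and genes were not assessed, since no hg19 genome was used here.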

Additional observations from a re-analysis of the deposited data

How the results depend on the processing

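Over 14 results and 142 alternatives, 6 reversed a direction, 20 moved and 116 did neither. A share counted as moved outside the 95% Wilson interval of its reported value, and a number of windows when over 1.5 times higher or lower. Exact tests of 2 against 2 libraries cannot pass 0.05, so only direction was assessed for them; the alternatives without the densest run were chosen after seeing the data. Unknown depth limits every count, and the cause of the changes below was not tested beyond what the alternative itself removes or joins.

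The width difference reversed to -0.776 and -7.00 kb when regions up to 10 and 50 kb apart were merged. The difference in relative density, 0.03 on the log2 scale, reversed to -0.43 among regions of at least 4 kb, to -0.034 without regions within 2 Mb of the centromere gap, to -0.58 against all other autosomes, and to -0.081 without shCDK12+OHT replicate 2 (range -0.081 to 0.14 over single libraries left out). The relative density difference kept its sign but was 0.46 without the densest run, and 0.14 and 0.33 after merging across 10 and 50 kb. The number of windows higher in shCDK12+OHT was 54 of 96 windows of 2 Mb and 16 of 20 of 10 Mb. Replicate agreement in shNT+OHT replicate 1 was 15.4% without the densest run and 41.7% when regions within 10 kb counted. In shNT+OHT replicate 2 it was 25% without the run and 62.5% among regions of at least 4 kb. In shCDK12+OHT it was 46.1 and 72.9% (replicates 1 and 2) among regions of at least 4 kb, and 69.9 and 73.8% within 10 kb. The kept share of shNT+OHT regions was 23.4% without the run, 49.3% within 10 kb and 50% among regions of both replicates. The reverse share, of shCDK12+OHT regions that shNT+OHT touched, 16.4%, was 8.99% at 4 kb or more, 10.5% after merging across 50 kb, 8.33% without the run, 21.4% within 10 kb and 9.09% among regions of both replicates.

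Leaving out single libraries gave log2 ratios of 1.16 to 1.91 for number and 1.40 to 2.17 for covered length, and differences of 0.245 to 0.685 kb in width, 31.2 to 33.6 points in long-arm share, -41.5 to -36.6 points in the fullest windows and -32.4 to -22.5 points in clustering. Windows higher in shCDK12+OHT numbered 30 to 34. The kept share ranged from 25.7% (without shCDK12+OHT replicate 2) to 39.8%, and the share of shCDK12+OHT regions touched from 8.22% (without shNT+OHT replicate 1) to 18.1%. Without thinning, the clustering difference was -11.8 points, with overlapping groups (exact permutation p-value 0.667). At equal number but after merging across 50 kb, it kept its sign and shrank to -3.88 points.

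Deviations of same-numbered replicates correlated by 0.0913 over chromosome 4 windows and -0.00505 over all windows, which does not pair the samples. A replicate block gave log2 ratios of 1.54 for number and 1.77 for covered length, and differences of 0.465 kb in width, 32.4 points in long-arm share, -39.0 points in the fullest windows, -27.4 points in clustering and 0.03 in relative density. The smallest p-value that 2 pairs allow is 0.5.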
